A study of Mus musculus with 2 samples.

Results

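The genes described here were the triggering receptors expressed on myeloid cells *Trem2* and *Trem1*, the adaptors *Tyrobp* (DAP12) and *Hcst* (DAP10), the kinase *Syk*, the phospholipase *Plcg2* and the inositol phosphatase *Inpp5d* (SHIP1). Each of the 7 genes was found by its symbol, and each matched 1 row of the 33696 genes in both count matrices. The cells were CD45 positive cells sorted from the Dounce homogenised thalamus of adult mice of the strain labelled C57B6/J. All mice had received a cortical brain injury, and all had received an antibody into the thalamus by repeated injection, either control Ab or an antibody against the tetraspanin CD9 (anti-CD9 Ab). Both groups were collected at the same delayed time after injury, and there was no uninjured or uninjected group among the samples used here. Each antibody was represented by 1 single-cell RNA-seq library, and the study's methods describe thalamic libraries as pools of several mice. No test between antibodies was therefore possible, and antibody, pool of mice and library cannot be told apart. All intervals below are 95% intervals that cover counting error only.

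TREM2 is a lipid- and apolipoprotein-binding receptor of microglia and macrophages, and TREM1 is a receptor of neutrophils and monocytes. Neither has a signaling tail of its own, so that both depend on the membrane adaptor DAP12, whose phosphorylated motif recruits the kinase SYK. DAP10, made from the gene next to *Tyrobp*, is a related adaptor that recruits phosphatidylinositol 3-kinase instead. SYK acts upstream of the phospholipase PLCγ2, and SHIP1 removes a phosphate from the lipid that phosphatidylinositol 3-kinase makes and so limits this signaling. TREM2 is known for its part in the transition of microglia to the damage-associated state, of which *Cd9* is a marker.

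The deposited matrices held 12245 barcodes with control Ab versus 15173 under anti-CD9 Ab, of which 7467 and 9162 passed the quality limits of the study, with medians of 1880 and 1419 unique molecular identifiers (UMIs) per cell. The libraries shared 18 barcodes among these cells. Of 27 clusters, 21 could be named from markers. The makeup of the libraries differed widely. Microglia-like cells made up 25.2% of the kept cells of the control Ab library (1880 cells) and 8.87% of the anti-CD9 Ab library (813 cells). Macrophage-like cells, which include monocytes, made up 2.64% and 12.8% (197 and 1170 cells), and neutrophil-like cells 0.87% and 30.1% (65 and 2761 cells). The microglia-like cells came from 2 clusters. The first, led by *Lpl*, *Cst7* and *Spp1*, was named MG#4-like, after a reactive state of the study. The second, led by *Siglech* and *P2ry12*, was named MG#2/3-like, after its less reactive states. No cluster was named after the other microglial states of the study, which reports that its intermediate state expanded with anti-CD9 Ab. Both clusters may hold cells of those states, so that MG#4-like cells are not the same as the MG#4 cells of the study. The members were left out of the genes used for clustering. Levels below are CPM, the UMIs of a gene summed over the cells of a type and scaled to a fixed total of UMIs for each type and library, which allow comparison of a gene between cells but not of different genes with each other.

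*Trem1* and *Trem2* lie in the same gene cluster on chromosome 17, and their RNA was found in different cells (below). Of the 7 members, 6 had a promoter window, 250 bases before to 50 bases after a start site, in the RefSeq table of the build GRCm38.p6. The windows of *Trem2*, *Trem1* and *Inpp5d* are shown as those of the receptors and the inhibitor, and were chosen after the windows had been searched, since each holds a motif match. Capitals mark GAGGAAG or AGGAAGT on either strand, purine-rich forms of the core bound by ETS-family factors such as PU.1 of myeloid cells. Each window is read 5′ to 3′ on the plus strand, which is the strand of all 3 genes.
Trem2, chr17:48346151-48346450: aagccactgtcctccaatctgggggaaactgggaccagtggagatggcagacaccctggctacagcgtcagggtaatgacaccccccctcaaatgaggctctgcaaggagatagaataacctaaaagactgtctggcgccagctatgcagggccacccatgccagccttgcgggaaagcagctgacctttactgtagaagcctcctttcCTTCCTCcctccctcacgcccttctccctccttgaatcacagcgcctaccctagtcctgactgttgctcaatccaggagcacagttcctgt
Trem1, chr17:48232489-48232788: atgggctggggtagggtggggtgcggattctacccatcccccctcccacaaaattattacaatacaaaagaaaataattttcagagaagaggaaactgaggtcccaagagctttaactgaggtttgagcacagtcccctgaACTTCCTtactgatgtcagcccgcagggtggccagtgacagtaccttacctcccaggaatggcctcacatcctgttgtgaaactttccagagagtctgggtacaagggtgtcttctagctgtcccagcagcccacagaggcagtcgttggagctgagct
Inpp5d, chr1:87620062-87620361: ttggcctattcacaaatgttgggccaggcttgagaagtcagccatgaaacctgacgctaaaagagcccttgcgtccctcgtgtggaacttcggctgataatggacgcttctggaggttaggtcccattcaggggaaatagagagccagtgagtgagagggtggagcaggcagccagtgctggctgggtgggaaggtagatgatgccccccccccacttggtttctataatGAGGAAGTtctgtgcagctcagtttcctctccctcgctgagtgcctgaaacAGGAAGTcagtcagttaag
GAGGAAG was present in the windows of *Trem2* (at base -41 from the start site) and *Inpp5d* (at base -20), and in 13.6% of all 32851 windows. AGGAAGT, which overlaps it by all but its last base, was present in those of *Trem1* (at base -109), *Hcst* and *Inpp5d* and in 9.35% of all windows. Neither was in the windows of *Syk* and *Plcg2*. These matches describe letters in short windows, and no binding was measured.

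**Figure D1:**
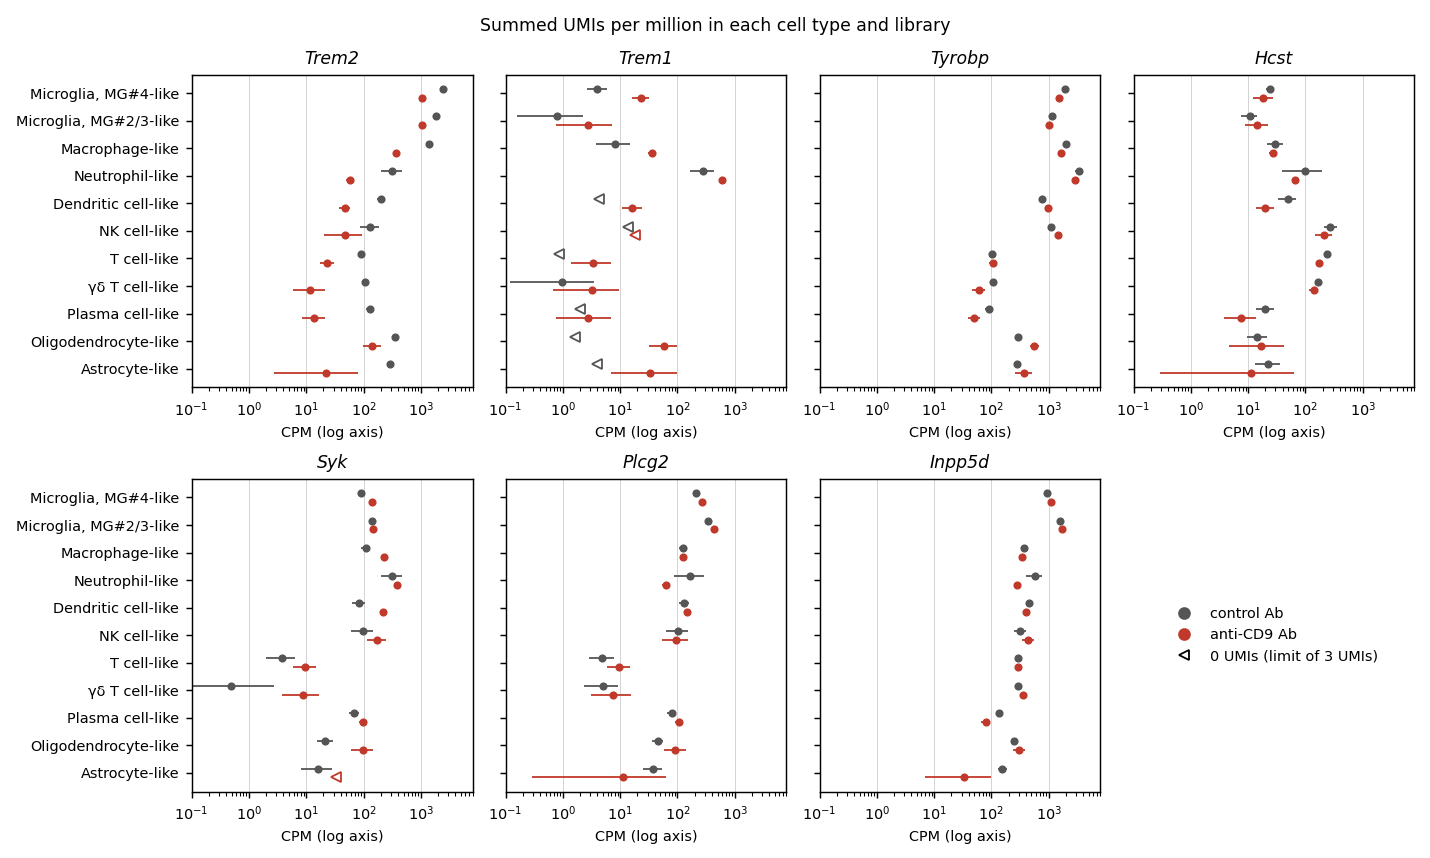
Level of each member (CPM, log axis) in each cell type with at least 50 cells in both libraries, with the microglia-like cells split by state; points are 1 library each, with exact Poisson 95% intervals, and open triangles mark 0 UMIs at the level that 3 UMIs would give. *Trem2* was highest in microglia-like cells (2199 CPM, control Ab; 1052 CPM, anti-CD9 Ab), *Trem1* in neutrophil-like cells (275.5 and 587.5 CPM), and *Hcst* in NK cell-like cells (273.5 and 208.2 CPM).

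*Trem2* RNA was most abundant in microglia-like cells and was lower there with anti-CD9 Ab. It stood at 2199 CPM (2171 to 2228) with control Ab versus 1052 CPM (1015 to 1089) under anti-CD9 Ab, which gave a log2 ratio of -1.06 (-1.12 to -1.01). Macrophage-like cells came next in both libraries, at 1404 CPM (1338 to 1471) with control Ab versus 373.0 CPM (358.3 to 388.2) under anti-CD9 Ab, which gave a log2 ratio of -1.91 (-2.0 to -1.82). In the microglia-like cells, the 10 microglia markers summed to 13090 CPM with control Ab versus 8591 CPM under anti-CD9 Ab. The part of this lower marker sum in the *Trem2* ratio was not tested. Cells that should lack *Trem2* also carried it. With control Ab, it was at 354.1 CPM in oligodendrocyte-like, 294.9 CPM in astrocyte-like and 90.2 CPM in T cell-like cells. The corresponding levels under anti-CD9 Ab were 142.1, 22.5 and 23.2 CPM. The 69 mural cell-like cells of the control Ab library were at 561.2 CPM (410.9 to 748.6). Such cells can carry free RNA from other cells. The values of 46.8 to 316.9 CPM in neutrophil-like, dendritic cell-like and NK cell-like cells lay within the range of these cells. The part of free RNA in those values was not tested. The log2 ratio of *Trem2* was below 0 in the 9 cell types with at least 50 cells in each library and at least 50 *Trem2* UMIs over both, those that should lack it included, with values from -3.72 to -1.06. The lowest value, in astrocyte-like cells, rests on 223 and 2 UMIs and turned to 0.59 with each cell named on its own.

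Within microglia-like cells, both states showed the lower *Trem2* level. In MG#4-like cells, *Trem2* was at 2417 CPM with control Ab versus 1056 CPM under anti-CD9 Ab. In MG#2/3-like cells, it was at 1829 CPM and 1047 CPM (log2 ratio -0.80, -0.89 to -0.72). The states therefore differed in *Trem2* level with control Ab, whereas with anti-CD9 Ab their intervals overlapped. Holding the UMI mix of the states at that of the control Ab library left the log2 ratio at -1.06, the same as without this step. The step weighs the MG#4-like and MG#2/3-like clusters only. It cannot see a shift of states within a cluster, and the part of such a shift was not tested. The *Trem2* difference was also seen cell by cell. After each cell was thinned to 2000 UMIs, which left out 466 and 99 shallower cells, microglia-like cells had a mean of 4.50 *Trem2* UMIs with control Ab (median 4, n = 1414 cells) versus 2.09 under anti-CD9 Ab (median 2, n = 714 cells). Cells without a *Trem2* UMI made up 3.68% (2.76 to 4.79%) with control Ab versus 19.7% (16.9 to 22.9%) under anti-CD9 Ab. Thinned to 1000 UMIs, 82.8% of microglia-like cells had a *Trem2* UMI with control Ab versus 63.6% under anti-CD9 Ab (96.5% and 91.4% unthinned), against 8.29% and 2.17% of T cell-like cells (median depths 1683 and 2124 UMIs, and 3174 and 3430 UMIs in microglia-like cells).

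Because *Cd9* itself was lower in the anti-CD9 Ab library, microglia-like cells were also compared within groups of similar *Cd9* UMIs per cell. Most groups span a range and the highest has no upper limit. *Cd9* was therefore matched in part only, here and below. *Cd9* stood at 4068 CPM in microglia-like cells with control Ab versus 1801 CPM under anti-CD9 Ab (log2 ratio -1.18, -1.22 to -1.13). In both libraries, cells with more *Cd9* UMIs had more *Trem2*, except that with anti-CD9 Ab cells without and with 1 to 2 *Cd9* UMIs were alike. With control Ab, *Trem2* went from 940 CPM in cells without *Cd9* UMIs (42 cells) to 1450, 1680, 2270 and 3180 CPM in cells with 1 to 2, 3 to 5, 6 to 10, and 11 or more *Cd9* UMIs. With anti-CD9 Ab, the same groups stood at 915, 912, 1160, 1310 and 1720 CPM. At matched *Cd9* counts, *Trem2* was lower with anti-CD9 Ab in the 4 groups of cells with *Cd9* UMIs, with ratios of -0.67 (-0.85 to -0.49), -0.53 (-0.69 to -0.37), -0.79 (-0.97 to -0.60) and -0.89 (-1.14 to -0.64) on the log2 scale. In cells without *Cd9* UMIs, the ratio was -0.04 with an interval from -0.42 to 0.35. *Tyrobp* followed another course. It was also higher in cells with more *Cd9*, from 976 to 2460 CPM with control Ab versus 1000 to 1950 CPM under anti-CD9 Ab, but its intervals included 0 in every group of *Cd9* counts except the highest (-0.34, -0.58 to -0.10).

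**Figure D2:**
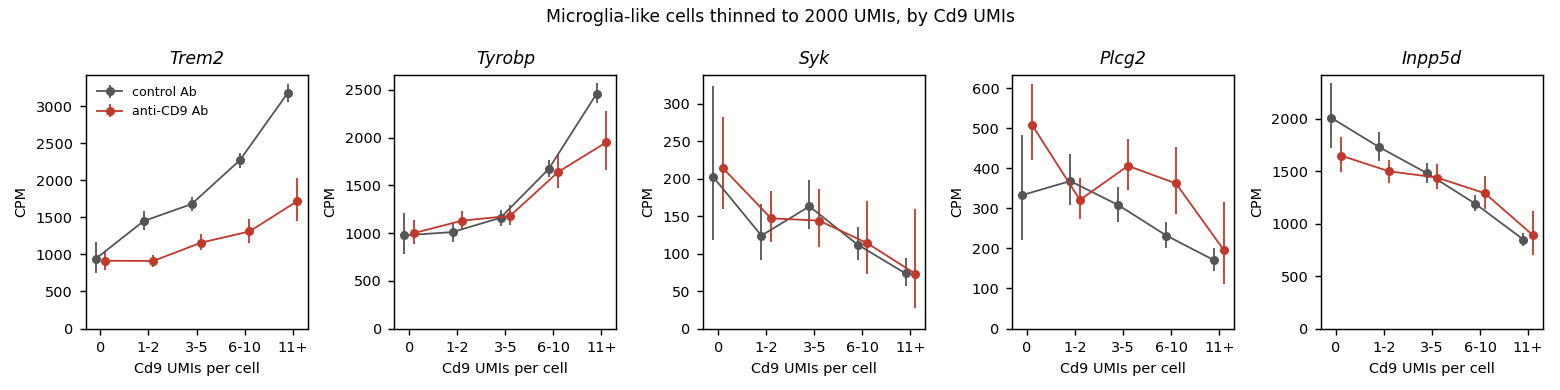
Levels (CPM, with exact Poisson 95% intervals) of *Trem2*, *Tyrobp*, *Syk*, *Plcg2* and *Inpp5d* in microglia-like cells thinned to 2000 UMIs, grouped by the *Cd9* UMIs of the cell, with control Ab in grey and anti-CD9 Ab in red. The *Trem2* curves separate in cells with *Cd9* UMIs (3180 against 1720 CPM at 11 or more), whereas the intervals of the *Syk* ratios included 0 in all 5 groups, and *Inpp5d* was lower with anti-CD9 Ab in the groups with 0 and 1 to 2 *Cd9* UMIs (-0.28 and -0.20).

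Cells were next split by *Cd9* (high at 3 or more UMIs of 2000) and *Trem2* (high at 2 or more). Among microglia-like cells, those high for both made up 74.5% (72.1 to 76.7%) with control Ab versus 32.2% (28.8 to 35.8%) under anti-CD9 Ab. *Cd9*-low *Trem2*-high cells made up 10.8% (9.25 to 12.6%) and 23.4% (20.3 to 26.7%), a difference of 12.6 percentage points (9.14 to 16.1). *Cd9*-low *Trem2*-low cells made up 4.67% and 26.2%, a difference of 21.5 points (18.2 to 25). The larger share of *Cd9*-low *Trem2*-high cells went with a larger *Cd9*-low class as a whole. Within the *Cd9*-low class, 69.9% (63.3 to 75.9%) were *Trem2*-high with control Ab (n = 219 cells) versus 47.2% (41.9 to 52.5%) under anti-CD9 Ab (n = 354 cells), and within the *Cd9*-high class 88.1% (n = 1195 cells) and 63.9% (n = 360 cells). The difference in *Cd9*-low *Trem2*-high cells was 14.0 points (10.1 to 18.5) in MG#4-like cells, from 2.78% to 16.8%, and 6.02 points (0.488 to 11.7) in MG#2/3-like cells, from 22.7% to 28.7%. *Cd9*-low *Trem2*-low cells made up 0.758% of MG#4-like cells with control Ab versus 24.0% under anti-CD9 Ab.

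**Figure D3:**
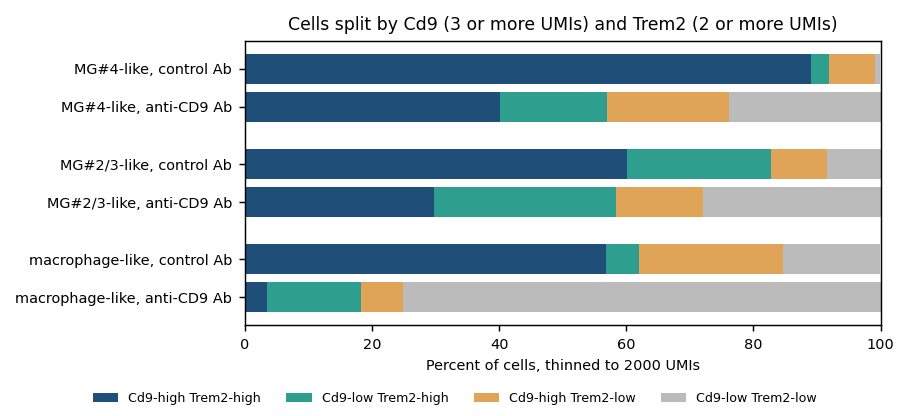
Percent of MG#4-like, MG#2/3-like and macrophage-like cells in each class of *Cd9* and *Trem2*, in cells thinned to 2000 UMIs, 1 bar per library. Cells high for both genes made up 89.1% and 40.1% of MG#4-like and 56.8% and 3.54% of macrophage-like cells in the control Ab and anti-CD9 Ab libraries.

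In macrophage-like cells, the *Trem2* level was lower by a larger factor than in microglia-like cells, and it was low in most cells of the anti-CD9 Ab library. The macrophage-like cells (197 and 1170 cells) form a single cluster that includes monocytes. The part of a different mix in the ratio was not tested. After thinning to 2000 UMIs, 18.9% of these cells had no *Trem2* UMI with control Ab (n = 190 cells) versus 61.6% under anti-CD9 Ab (n = 1131 cells). The *Cd9*-low *Trem2*-low class held 15.3% and 75.2% of macrophage-like cells, respectively. *Cd9* itself stood at 4218 CPM and 380.9 CPM (log2 ratio -3.47, -3.54 to -3.40). At matched *Cd9* counts, the log2 ratio of *Trem2* was -0.39 (-1.28 to 0.68) in cells without *Cd9* UMIs (14 and 735 cells), -0.61 (-1.16 to -0.01) at 1 to 2, -1.10 (-1.53 to -0.66) at 3 to 5, -0.96 (-1.65 to -0.33) at 6 to 10 and -0.68 (-1.66 to 0.16) at 11 or more (59 and 6 cells). The intervals of the lowest and the highest group of *Cd9* counts thus included 0. The 10 microglia markers summed to 3416 CPM in the macrophage-like cells with control Ab versus 832.3 CPM under anti-CD9 Ab, none of them at 0. Among macrophage-like cells without a UMI of *P2ry12*, *Tmem119* and *Sall1* (133 and 839 cells), *Trem2* was at 1310 CPM and 303.8 CPM, a log2 ratio of -2.11 (-2.23 to -1.99).

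**Figure D4:**
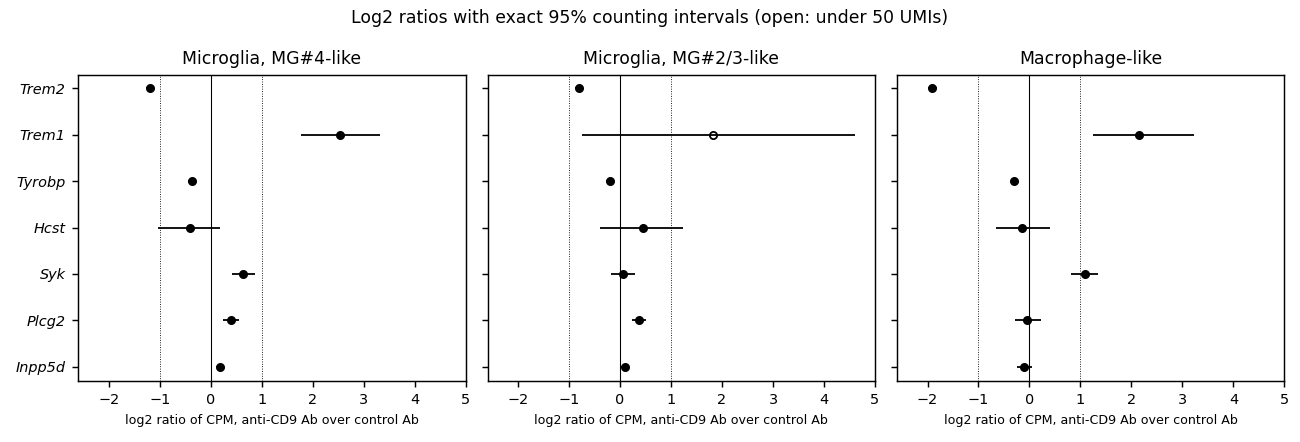
Log2 ratio of CPM (anti-CD9 Ab over control Ab) of the 7 members in MG#4-like, MG#2/3-like and macrophage-like cells, with exact 95% counting intervals; dotted lines mark a 2-fold difference and open points rest on under 50 UMIs. *Trem2* lies furthest to the left in all 3 panels, and *Syk* lies at 0.64, 0.06 and 1.08, respectively.

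*Trem1* RNA was highest in neutrophil-like cells. It stood at 275.5 CPM (168.3 to 425.6) with control Ab, from 20 UMIs in 65 cells, versus 587.5 CPM (562.0 to 613.9) under anti-CD9 Ab, from 1995 UMIs in 2761 cells, a log2 ratio of 1.09 (0.46 to 1.81). The neutrophil-like cells came from 3 clusters whose *Trem1* levels differed within the anti-CD9 Ab library. The cluster led by *Retnlg* and *S100a9* (451 cells) was at 1138 CPM (1053 to 1229), the cluster led by *Cxcl2* and *Ccl4* (859 cells) at 617.4 CPM (573.7 to 663.6), and the cluster led by *Lcn2* and *Mmp9* (1451 cells) at 368.2 CPM (339.2 to 398.9). With control Ab these clusters held 19, 3 and 43 cells, so that the neutrophil-like ratio compares different mixes of clusters. Within clusters, the ratio was 0.27 (-0.52 to 1.18) in the cluster led by *Lcn2* and *Mmp9* and 2.42 (1.29 to 3.87) in that led by *Retnlg* and *S100a9*, from 13 and 6 UMIs with control Ab. Elsewhere *Trem1* was scarce. In macrophage-like cells it was at 8.03 CPM with control Ab versus 35.5 CPM under anti-CD9 Ab, from 10 and 230 UMIs. In microglia-like cells it was at 2.78 and 13.2 CPM (29 and 39 UMIs). With anti-CD9 Ab, oligodendrocyte-like cells, which should lack *Trem1*, were at 58.5 CPM (32.0 to 98.2), astrocyte-like cells at 33.7 CPM (3 UMIs) and T cell-like cells at 3.38 CPM. The neutrophil markers summed to 3815 CPM in these oligodendrocyte-like cells, 1818 CPM in astrocyte-like, 333.9 CPM in T cell-like, 750.7 CPM in macrophage-like and 1195 CPM in microglia-like cells, against 40950 CPM in neutrophil-like cells. With control Ab, they summed to 298.1 CPM in macrophage-like and 513.9 CPM in microglia-like cells. The part of neutrophil RNA in the *Trem1* values of macrophage-like and microglia-like cells was not tested. In the control Ab library, *Trem1* had 0 UMIs in dendritic cell-like, NK cell-like, T cell-like, plasma cell-like, oligodendrocyte-like and astrocyte-like cells.

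The adaptor *Tyrobp* was spread over all myeloid cells and NK cells. Its order was the same at the top in both libraries. Neutrophil-like cells were highest at 3334 CPM with control Ab versus 2830 CPM under anti-CD9 Ab, followed by macrophage-like cells at 2008 and 1622 CPM. Microglia-like cells (1636 CPM) stood above NK cell-like cells (1099 CPM) with control Ab, whereas with anti-CD9 Ab NK cell-like cells were at 1457 CPM (1280 to 1652), which overlapped macrophage-like cells, and microglia-like cells at 1250 CPM (1211 to 1291). Dendritic cell-like cells followed at 760.5 and 954.6 CPM. T cell-like cells were at 101.3 and 105.2 CPM. The log2 ratio of *Tyrobp* was -0.39 (-0.44 to -0.34) in microglia-like cells, -0.31 (-0.37 to -0.24) in macrophage-like cells and -0.24 (-0.42 to -0.05) in neutrophil-like cells, and it was 0.33 (0.18 to 0.47) in dendritic cell-like and 0.41 (0.14 to 0.67) in NK cell-like cells. Scaled so that the median of all genes, -0.12 in neutrophil-like cells, was 0, the neutrophil-like value was -0.01. The neutrophil-like value also compares different mixes of clusters. The cluster led by *Cxcl2* and *Ccl4* held 3 and 859 cells, and that led by *Lcn2* and *Mmp9* 43 and 1451. That led by *Retnlg* and *S100a9* held 19 and 451. With anti-CD9 Ab, *Tyrobp* was lowest in the cluster led by *Cxcl2* and *Ccl4*, as given at the end. The part of this mix in the ratio was not tested. With each cell named on its own, the dendritic cell-like and NK cell-like values were -0.21 and -0.01. The NK cell-like value was 0.09 at a mitochondrial limit of 5%, 1.18 without integration and 1.13 at resolution 0.4. In the 2 clusters of dendritic cell-like cells, *Tyrobp* was at 756.5 and 1127 CPM in the cluster led by *Wdfy4* and *Flt3* (108 and 230 cells) and at 807.3 and 545.1 CPM in the cluster led by *Ccr7* and *Fscn1* (17 and 159 cells).

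The UMIs of the receptor relative to its adaptor shifted with *Trem2*. Microglia-like cells had 134 *Trem2* UMIs per 100 *Tyrobp* UMIs with control Ab (132 to 137) versus 84.1 under anti-CD9 Ab (80.2 to 88.2). In MG#2/3-like cells the figures were 160 and 104, in MG#4-like cells 126 and 71.0, and in macrophage-like cells 69.9 and 23.0. Cells that should lack *Trem2* showed the same direction. T cell-like, oligodendrocyte-like and plasma cell-like cells had 89.0, 120 and 139 *Trem2* UMIs per 100 *Tyrobp* UMIs with control Ab versus 22.0, 25.2 and 27.8 under anti-CD9 Ab. Neutrophil-like cells of the anti-CD9 Ab library had 20.8 *Trem1* UMIs and 2.04 *Trem2* UMIs per 100 *Tyrobp* UMIs. With control Ab these figures were 8.26 and 9.5, from 20 *Trem1*, 23 *Trem2* and 242 *Tyrobp* UMIs.

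The adaptor *Hcst* was highest in lymphocyte-like cells. NK cell-like cells were at 273.5 CPM with control Ab versus 208.2 CPM under anti-CD9 Ab, T cell-like cells at 240.3 and 169.9 CPM, and γδ T cell-like cells at 164.0 and 140.0 CPM. The intervals of NK cell-like and T cell-like cells overlapped in both libraries. *Hcst* was lower with anti-CD9 Ab in T cell-like cells (log2 ratio -0.50, -0.68 to -0.32), whereas the interval in γδ T cell-like cells ran from -0.53 to 0.07. The T cell-like cells came from several clusters in different mixes. The cluster led by *Ube2c* and *Stmn1* held 43 of 1796 and 103 of 752 of these cells, with medians of 4444 and 5899 UMIs. The part of this mix in the *Hcst* ratio was not tested. In microglia-like cells, *Hcst* was at 19.3 and 16.5 CPM, and in macrophage-like cells at 29.7 and 26.9 CPM. Astrocyte-like cells were at 22.5 and 11.2 CPM, from 17 and 1 UMIs, too few to set a background level with anti-CD9 Ab. NK cell-like cells had 24.9 and 14.3 *Hcst* UMIs per 100 *Tyrobp* UMIs. T cell-like cells had 237 and 161, from 355 and 218 *Tyrobp* UMIs, and the part of free RNA in this *Tyrobp* level was not tested.

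The kinase *Syk* was higher with anti-CD9 Ab in all 7 cell types with enough counts to compare it. These had at least 50 cells in each library and at least 50 *Syk* UMIs over both. The interval of the log2 ratio lay above 0 in 5 of them. Values ran from 0.29 to 2.16, highest in oligodendrocyte-like cells. In macrophage-like cells *Syk* stood at 108.5 CPM (90.9 to 128.4) with control Ab versus 228.6 CPM (217.1 to 240.6) under anti-CD9 Ab, which gave a log2 ratio of 1.08 (0.82 to 1.34). In dendritic cell-like cells it was at 83.4 and 218.3 CPM (1.39, 0.99 to 1.81), and in the cluster of these cells led by *Wdfy4* and *Flt3* at 78.2 and 188.2 CPM (1.27, 0.82 to 1.74). Neutrophil-like cells were at 316.9 and 388.7 CPM, and the interval of their ratio ran from -0.30 to 0.96. T cell-like cells were at 3.71 and 9.65 CPM, whereas oligodendrocyte-like cells were at 21.4 and 96.1 CPM, where the neutrophil markers summed to 150 and 3815 CPM. In the macrophage-like cells without a UMI of *P2ry12*, *Tmem119* and *Sall1*, *Syk* was at 95.3 and 250.2 CPM (1.39, 1.04 to 1.76). At matched *Cd9* counts, its ratio in macrophage-like cells ranged from -0.02 to 1.68, and every interval included 0, with at most 14 *Syk* UMIs per group with control Ab.

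In microglia-like cells, the *Syk* difference depended on which cells were compared. It was 0.64 (0.41 to 0.87) in MG#4-like cells, from 91.3 to 142.2 CPM, and 0.06 (-0.17 to 0.29) in MG#2/3-like cells, from 142.5 to 148.5 CPM. Predicted doublets made up 9.42% of MG#4-like cells with control Ab versus 21.8% under anti-CD9 Ab. In MG#2/3-like cells they made up 1.97% and 3.27%. Over all microglia-like cells, the *Syk* ratio was 0.40, and 0.13 without predicted doublets. The part of doublets in the difference between states was not tested. *Syk* was lower in cells with the most *Cd9* UMIs than in those without, at 202 CPM without *Cd9* UMIs and 73.5 CPM at 11 or more with control Ab versus 214 and 73.2 CPM under anti-CD9 Ab. At matched *Cd9* counts, the 5 log2 ratios lay between -0.19 and 0.24, and every interval included 0. The neutrophil markers summed to 513.9 CPM in microglia-like cells with control Ab versus 1195 CPM under anti-CD9 Ab, and the erythroid markers to 12.96 and 455.2 CPM. In the microglia-like cells without a UMI of either list (499 and 128 cells), *Syk* was at 103.1 and 94.9 CPM (-0.12, -0.69 to 0.42), whereas *Trem2* was at 2383 and 1265 CPM (-0.91, -1.06 to -0.77).

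Among cell types with at least 50 cells in both libraries, the effector *Plcg2* was highest in microglia-like cells, at 255.6 CPM (246.0 to 265.5) with control Ab versus 354.7 CPM (333.6 to 376.8) under anti-CD9 Ab, which gave a log2 ratio of 0.47 (0.37 to 0.58). Both states shared this, with 206.4 and 272.6 CPM in MG#4-like cells (0.40, 0.24 to 0.56) and 339.8 and 440.8 CPM in MG#2/3-like cells (0.38, 0.24 to 0.51). In the microglia-like cells without neutrophil or erythroid marker UMIs, it was at 257.0 and 361.0 CPM (0.49, 0.19 to 0.78). At matched *Cd9* counts, the interval lay above 0 in cells with 0, 3 to 5 and 6 to 10 *Cd9* UMIs and included 0 in cells with 1 to 2 and 11 or more. In macrophage-like cells, *Plcg2* was at 126.9 and 123.5 CPM, with an interval of the ratio from -0.29 to 0.22. Neutrophil-like cells were at 165.3 CPM with control Ab (85.4 to 288.8), an interval that overlapped that of microglia-like cells. B cell-like cells, of which the control Ab library held 33, had *Plcg2* at 254.1 and 335.4 CPM and *Syk* at 277.2 and 525.0 CPM.

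The inhibitor *Inpp5d* was also highest in microglia-like cells, at 1187 CPM (1166 to 1208) with control Ab versus 1383 CPM (1341 to 1426) under anti-CD9 Ab, which gave a log2 ratio of 0.22 (0.17 to 0.27). MG#2/3-like cells (1603 and 1704 CPM) stood above MG#4-like cells (943.2 and 1077 CPM) in both libraries, the reverse of *Tyrobp* (1146 and 1002 against 1923 and 1487 CPM). With control Ab, *Inpp5d* went from 2010 CPM in cells without *Cd9* UMIs to 849 CPM in those with 11 or more, and with anti-CD9 Ab from 1650 to 890 CPM. At matched *Cd9* counts, its ratio was not above 0 beyond counting error in any group, and it was -0.28 (-0.55 to -0.01) without *Cd9* UMIs and -0.20 (-0.36 to -0.05) at 1 to 2. Macrophage-like cells were at 372.8 and 348.4 CPM, with an interval of the ratio from -0.24 to 0.05. Neutrophil-like cells were at 564.9 and 278.0 CPM (-1.02, -1.47 to -0.53), from 41 UMIs with control Ab. In these neutrophil-like cells, the microglia markers summed to 1929 and 431.1 CPM and the macrophage and monocyte markers to 10680 and 2923 CPM. The part of such RNA in the ratio was not tested. *Inpp5d* was also found in lymphocytes, with 289.4 and 292.0 CPM in T cell-like and 319.9 and 434.2 CPM in NK cell-like cells.

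Over the 7 members, the log2 ratio passed 2-fold for 2 in microglia-like cells and for 3 in macrophage-like cells. In microglia-like cells, *Trem2* was lower and *Trem1* higher, whereas among all 11079 genes with 50 or more UMIs 4.29% were lower by 2-fold or more and 3.31% higher. In macrophage-like cells, *Trem2* was lower and *Trem1* and *Syk* higher, where 6.24% of 8978 genes were lower and 8.34% higher. In both cell types the neutrophil marker sum given above was also higher with anti-CD9 Ab, beside the value of *Trem1*. Without predicted doublets, the log2 ratio of *Trem1* was 0.64 in microglia-like cells, within 2-fold, and 1.53 in macrophage-like cells. As a mean of CPM over cells, *Trem2* in microglia-like cells (-0.97) and *Syk* in macrophage-like cells (0.94) were also within 2-fold. So was *Trem2* in microglia-like cells without neutrophil and erythroid marker UMIs (-0.91). The median log2 ratio of the members was 0.22 in microglia-like and -0.10 in macrophage-like cells, beside 0.02 and 0.00 over all genes, with 3 members lower and 4 higher in the former and 5 lower and 2 higher in the latter.

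A list of 66 other genes of the pathway was read in the same way. Of these, 55 had at least 50 UMIs in microglia-like cells, of which 5 were lower and 4 higher by 2-fold or more, with a median log2 ratio of 0.22 beside 0.02 over all genes. Among all 11079 genes there, 4.29% were lower and 3.31% higher by 2-fold or more. In macrophage-like cells, 60 had at least 50 UMIs, of which 5 were lower and 13 higher, with a median of 0.35 beside 0.00. Among all 8978 genes there, 6.24% were lower and 8.34% higher.

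Among known TREM2 ligands, *Apoe*, which makes the apolipoprotein E that TREM2 binds, was lower with anti-CD9 Ab in microglia-like (18450 and 12760 CPM) and macrophage-like cells (29190 and 15930 CPM; log2 ratio -0.87, -0.89 to -0.86). The ligand *Clu* had the lowest ratio in microglia-like cells (6.05 and 1.01 CPM; -2.58, -4.90 to -0.97), from 63 and 3 UMIs. T cell-like cells, which should lack it, were at 8.28 and 0.965 CPM. The part of free RNA in the microglia-like value of *Clu* was not tested. *Lgals3*, which makes galectin-3, was at 3579 and 1312 CPM in macrophage-like cells (-1.45, -1.5 to -1.39). *Pglyrp1*, a neutrophil granule protein and TREM1 ligand, was at 3.94 and 8.43 CPM in microglia-like cells (1.10, 0.32 to 1.85), from 41 and 25 UMIs. T cell-like cells were at 64.5 and 61.3 CPM and neutrophil-like cells at 1557 and 368.1 CPM. The part of RNA from such cells in the microglia-like value of *Pglyrp1* was not tested.

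In macrophage-like cells, 5 of the 9 measured receptors that use *Tyrobp* or *Hcst* were higher by 2-fold or more, beside 8.34% of all 8978 genes. These receptors included the paired activating receptors *Pilrb1* (4.02 and 28.4 CPM, log2 ratio 2.82, 1.57 to 4.46) and *Pilrb2* (10.4 and 57.4 CPM, log2 ratio 2.46, 1.67 to 3.38). In neutrophil-like cells, *Pilrb1* was at 68.9 and 66.6 CPM and *Pilrb2* at 192.9 and 82.5 CPM. The part of neutrophil RNA in the macrophage-like values was not tested. *Siglech*, a *Tyrobp*-coupled lectin of microglia, was at 59.5 CPM in macrophage-like cells with control Ab versus 0.926 CPM under anti-CD9 Ab (74 and 6 UMIs; -6.00, -7.50 to -4.81), and the microglia marker sum given above was also lower there. *Trem3*, a neighbour of *Trem1*, was at 2.02 and 12.5 CPM in microglia-like cells (2.63, 1.82 to 3.48) and at 8.84 and 44.6 CPM in macrophage-like cells (2.34, 1.47 to 3.35). Neutrophil-like cells had *Trem3* at 358.2 and 323.1 CPM, T cell-like cells had 0.571 and 2.90 CPM, and as for *Trem1* the part of neutrophil RNA was not tested. *Ms4a4a*, a membrane protein tied to release of soluble TREM2, was at 18.5 and 96.8 CPM in macrophage-like cells (2.39, 1.79 to 3.06). In microglia-like cells, *Cd300lb*, an activating receptor coupled to *Tyrobp*, was at 15.3 and 5.39 CPM (-1.5, -2.34 to -0.76).

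**Figure D5:**
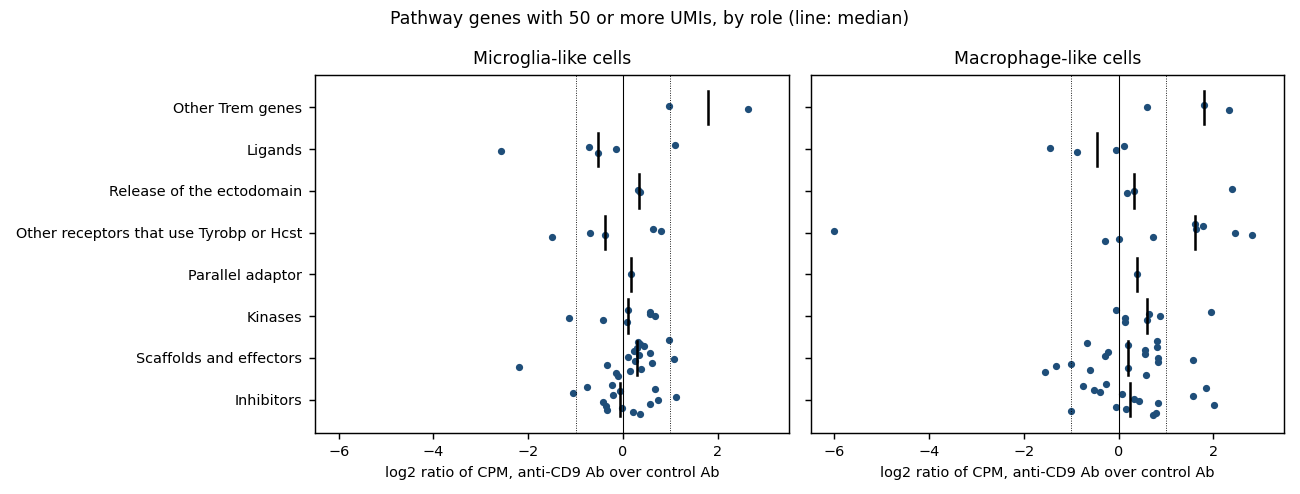
Log2 ratio of CPM (anti-CD9 Ab over control Ab) of the pathway genes with at least 50 UMIs, by role, in microglia-like and macrophage-like cells; each point is a gene, the bar is the median of the role, and dotted lines mark a 2-fold difference. The receptors that use *Tyrobp* or *Hcst* had a median of -0.38 in microglia-like and 1.61 in macrophage-like cells.

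The parallel adaptor *Fcer1g*, the common γ chain of Fc receptors, was at 2088 and 2368 CPM in microglia-like cells (0.18, 0.14 to 0.22) and at 3525 and 4573 CPM in macrophage-like cells (0.38, 0.33 to 0.42), whereas *Tyrobp* was lower in both. Of the 18 scaffolds and effectors, all of which were measured in microglia-like cells, *Pik3ap1*, an adaptor of phosphatidylinositol 3-kinase, was higher by 2-fold or more (312.9 and 663.2 CPM; 1.08, 1.00 to 1.16) and *Lat*, a scaffold of T cells, was lower (9.22 and 2.02 CPM; -2.19, -3.67 to -1.01). *Lat* had 96 and 6 UMIs there, and the 10 T cell markers summed to 153.7 and 32.7 CPM in the same cells. In macrophage-like cells, the scaffold *Blnk* was at 122.1 and 41.4 CPM (-1.56, -1.85 to -1.26) and *Lat* at 17.7 and 7.10 CPM (-1.32, -2.08 to -0.51). Among the kinases, *Fyn* was lower in microglia-like cells (58.3 and 26.6 CPM; -1.13, -1.49 to -0.79). Among the inhibitors, *Pirb*, an inhibitory immunoglobulin-like receptor, was higher in microglia-like cells (20.2 and 43.8 CPM; 1.12, 0.79 to 1.44) and in macrophage-like cells (112.5 and 336.9 CPM; 1.58, 1.34 to 1.84). The part of these marker sums in the values of the pathway genes was not tested.

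The genes whose levels most resembled each member over the 22 groups of cell type and library with at least 50 cells were then listed, as a description. These groups share libraries and free RNA. Among the genes most like *Trem2* were the complement genes *C1qa* and *C1qc* (Pearson's r = 0.940 each), and *Trem1* was most like *Lrg1* (0.972), *Hdc* (0.970) and *Retnlg* (0.961), genes of neutrophils. *Tyrobp* was most like *Fcer1g* (0.970), followed by *Atp6v1b2* and *Nfe2l2*. *Hcst* was most like *Arhgap9*, *Ptpn7* and *Rinl* (0.918 to 0.946), and *Inpp5d* most like *Abi3*, *Nckap1l* and *Pacsin2* (0.903 to 0.910). For *Syk*, the list was *Scimp* (0.879), *Plcg2* (0.877) and *Sh3bp2* (0.837), and for *Plcg2* it was *Syk*, *Pkig* (0.853) and *Btk* (0.814). *Trem2* and *Trem1* did not resemble each other (r = -0.05), and each had a moderate r with *Tyrobp* (0.55 and 0.54).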

How the data were processed

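CD45 positive cells of the thalamus were profiled with the 10x Genomics Single Cell 3′ assay, in 1 library per antibody. The deposited files hold raw UMI counts per gene and barcode, which the authors made with Cell Ranger; per the labels this was version 8.0.0 with the build GRCm39, whereas the study's methods name another version and build. Cells with 200 to 7500 genes and at most 2% mitochondrial counts were kept, as in the study, and predicted doublets were kept. Kept UMIs totalled 24940542 and 22664880, and limit precision for scarce genes. Cells were clustered with Seurat 5.3.0 (R 4.3.3; anchor integration, 2000 genes, 30 components, resolution 0.8) without the members, the pathway list and state markers.

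A cluster took the type with the largest share of markers raised at least 2-fold against the other clusters (pseudocount 20 CPM, a UMI in 10% of cells), given at least 40% of the list, 3 markers and at most 50% predicted doublets; these limits were set after seeing the clusters. UMIs were summed per type and library. Ratios carry exact conditional binomial intervals, levels exact Poisson, shares exact binomial and differences of shares Newcombe intervals, all at 95%; the interval code was tested on simulated data. PCR duplicates are removed by UMIs, and intervals do not cover variation between mice. A gene was read as past 2-fold at 50 or more UMIs. Thinning drew UMIs without replacement. Named pathway genes were the 4 highest and 4 lowest ratios per cell type, *Apoe*, *Fcer1g* and *Cd9*; the value of *Pirb* in macrophage-like cells was added after it was seen. Like genes were the 3 with the highest Pearson's r of log2(CPM + 10), of 11837 genes with at least 200 UMIs; 1 of these genes is not reported here. The motifs were chosen after the windows had been searched. The members and lists were chosen with earlier results of these data known. Alternatives are given in the closing section.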

Additional observations from a re-analysis of the deposited data

Results flagged for a closer look

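*Plcg2* differed in opposite directions between 2 cell types. It was higher with anti-CD9 Ab in oligodendrocyte-like cells (45.5 and 91.9 CPM, from 85 and 22 UMIs; log2 ratio 1.01, 0.27 to 1.70) and lower in neutrophil-like cells (165.3 and 62.4 CPM, from 12 and 212 UMIs; -1.4, -2.24 to -0.43). The difference between these ratios was not tested. In the oligodendrocyte-like cells, the neutrophil markers summed to 150 and 3815 CPM and the erythroid markers to 32.7 and 3556 CPM, and their part in the result was not tested. The oligodendrocyte-like ratio was 1.96 without predicted doublets and 1.72 as a mean of CPM over cells. The neutrophil-like ratio rests on 65 cells with control Ab, and within the cluster led by *Lcn2* and *Mmp9* it was 0.02 with an interval from -1.36 to 1.92. The microglia markers summed to 1929 and 431.1 CPM in neutrophil-like cells, and their part in the result was not tested.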

How the results depend on the processing

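No paired analysis was possible because each antibody had 1 library, and for the same reason no replicate could be left out. The median log2 ratio of the members in microglia-like cells (0.22) was 0.15 at a mitochondrial limit of 5% and with each cell named on its own, 0.13 as a mean of CPM over cells, and 0.00 both without predicted doublets and at 200 or more UMIs, where 6 members remained measured. In macrophage-like cells (-0.10) it was 0.10 without predicted doublets and 0.14 without integration. The difference in *Cd9*-low *Trem2*-high cells (12.6 points) was 23.5 at 1 or more *Trem2* UMIs and 5.74 at 3 or more. The medians of the pathway list lay between 0.09 and 0.22 in microglia-like and between 0.26 and 0.49 in macrophage-like cells. In microglia-like cells *Syk* ranged from -0.12 to 0.49. *Trem2* was lower under all 9 alternatives in microglia-like (-1.13 to -0.91) and macrophage-like cells (-2.11 to -1.72), and *Syk* was higher in macrophage-like cells (0.94 to 1.39). *Inpp5d* in macrophage-like cells ranged from -0.41 to 0.39, so that its direction depended on the cells chosen, and *Hcst* (-0.25 to 0.19) and *Plcg2* (-0.22 to 0.14) also changed sign there. In astrocyte-like cells, *Trem2* and *Inpp5d* turned to 0.59 and 1.99 with each cell named on its own. The cause of these shifts was not tested. Of 428 single values over 52 ratios, 348 stayed within counting error of the reported one. The comparisons of cells without microglia, neutrophil or erythroid marker UMIs were added after seeing the data. Depth limits *Trem1* and *Hcst* in microglia-like cells (39 and 49 UMIs with anti-CD9 Ab), and *Trem1* was not measured there in cells without neutrophil and erythroid marker UMIs (2 and 0 UMIs).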

Other observations

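Clusters that took no cell type name also carried the members. The cluster led by *Sdk1*, *Stmn1* and *Top2a*, genes of dividing cells, had 3 of the 10 microglia markers raised and held 126 cells with control Ab versus 90 under anti-CD9 Ab. Its *Trem2* was at 2197 and 984.8 CPM (log2 ratio -1.16, -1.34 to -0.98), its *Tyrobp* at 2035 and 1308 CPM (-0.64, -0.80 to -0.48) and its *Syk* at 76.5 and 127.4 CPM (0.74, 0.12 to 1.34). A shallow cluster led by haemoglobin genes, with 3 of the 10 microglia markers raised (337 and 215 cells), had *Trem2* at 932.1 and 377.8 CPM (-1.30, -1.68 to -0.94), *Inpp5d* at 1890 and 1739 CPM and *Syk* at 121.3 and 261.6 CPM (1.11, 0.48 to 1.75).

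A cluster led by *Gdf15* and *Hilpda* held 1 cell with control Ab versus 732 under anti-CD9 Ab, where *Tyrobp* was at 2128 CPM (2025 to 2235), *Syk* at 378.3 CPM and *Trem1* at 66.4 CPM. A shallow cluster led by *Ttr*, *Mcpt2* and *Arg1* (23 and 1231 cells, median 775 UMIs) had *Trem2* at 220.5 CPM, *Tyrobp* at 1093 CPM and *Trem1* at 48.2 CPM with anti-CD9 Ab. Among the neutrophil-like clusters of the anti-CD9 Ab library, *Tyrobp* was at 3520 CPM in the cluster led by *Retnlg* and *S100a9*, at 3440 CPM in that led by *Lcn2* and *Mmp9* and at 1672 CPM in that led by *Cxcl2* and *Ccl4*, and *Syk* was at 576.1, 455.9 and 207.2 CPM in the same order.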
